A study of Homo sapiens with 12 samples.

Results

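The ATF4 response and amino acid supply genes form a set of 32 genes of the integrated stress response, taken here across a study of silver in Caco-2, a long-established cell line from a human colon carcinoma whose confluent layers come to resemble the absorptive lining of the gut. The genes were listed by name, with earlier results of these data known. Each was represented by its probe set with the highest mean over the 12 arrays among those assigned to 1 gene symbol. All 32 were measured, of 19775 genes in all. By role they comprise 7 transcription factors, 6 feedback and stress effectors, 6 enzymes of amino acid synthesis, 3 mitochondrial one-carbon enzymes, 6 amino acid transporters and 4 secreted or surface proteins. Expression was measured on 3' expression arrays in 4 groups of 3 arrays: cells exposed for 24 h to silver nanoparticles with a surfactant coat (AgPURE) at 2.5 µg/mL, to the same nanoparticles at 25 µg/mL, to silver ions (AgNO3) at 0.5 µg/mL, and cells in medium alone. All 4 groups were Caco-2 cells of passage 22, differentiated until 21 days after confluence and kept during exposure in serum-free DMEM with insulin, transferrin, selenium and antibiotics. No group received the surfactant alone, so surfactant and silver cannot be told apart in the nanoparticle groups, and the ion dose differs from both particle doses. Whether each array stood for its own culture is not stated in the labels; the p-values therefore reflect only how far arrays of 1 group scattered, possibly for technical reasons, and 3 arrays per group limit the precision.

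When cells lack amino acids, when unfolded protein builds up in the endoplasmic reticulum, when mitochondria are disturbed or when haem is scarce, kinases phosphorylate the initiation factor eIF2, which slows translation in general but favours translation of the ATF4 mRNA. ATF4 protein then pairs with C/EBP family proteins on composite DNA elements and switches on genes for amino acid uptake, amino acid synthesis, the charging of tRNA and the later shut-off of the response. The arrays measured mRNA and therefore not the translational step at ATF4 itself. In bulk samples such as these, fewer cells of a type and less RNA per cell cannot be told apart.

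The composite element is the sequence feature for which this gene set is known, so the promoter windows that hold it are shown first. RefSeq promoter windows (GRCh38.p14, 250 bases before to 50 bases after the start) were found for 26 of the 32 genes. The letters TGATGNAA, searched on both strands, were present in windows of 9 of these 26 genes (34.6%). The share was 4.46% over the 27305 genes in the table. Counted by window, they were present in 9 of the 42 windows of these genes, against 3.62% of all windows. Several windows were listed for 11 of the 26 genes. With C at the open position (TGATGCAA, a subset of the same matches) the count was 6 of 26 (23.1%), against 1.08% of genes. The palindromic cAMP response element TGACGTCA was present in PPP1R15A alone among the 26, against 2.25% of genes. These are matches of letters and not measured binding sites. The stretches around each match follow, 5′ to 3′ on the strand of the gene, with the matched letters in capitals; a match on the opposite strand reads as TTGCATCA or TTACATCA.
SLC1A4: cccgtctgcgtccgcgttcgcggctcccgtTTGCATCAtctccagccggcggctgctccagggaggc
SLC7A1: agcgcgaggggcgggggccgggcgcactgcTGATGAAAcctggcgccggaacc
SLC1A5: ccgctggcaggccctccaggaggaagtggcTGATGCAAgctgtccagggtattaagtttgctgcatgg
SLC3A2: ctgaagtaatgtgcaggactccTTACATCA
CHAC1: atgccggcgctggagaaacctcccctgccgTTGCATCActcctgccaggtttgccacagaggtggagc
ASNS: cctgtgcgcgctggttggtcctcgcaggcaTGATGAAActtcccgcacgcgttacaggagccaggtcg
CEBPG: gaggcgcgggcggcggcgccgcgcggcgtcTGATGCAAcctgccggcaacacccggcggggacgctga
JDP2: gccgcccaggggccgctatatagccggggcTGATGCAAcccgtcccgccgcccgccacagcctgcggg
FGF21: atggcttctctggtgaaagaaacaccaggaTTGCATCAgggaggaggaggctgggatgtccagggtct
PPP1R15A (cAMP response element): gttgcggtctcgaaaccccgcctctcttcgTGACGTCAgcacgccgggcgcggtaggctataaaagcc

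These stretches lie at chr2:64989362-64989428 (+ strand) for SLC1A4, chr13:29595659-29595711 (- strand) for SLC7A1 and chr19:46784874-46784941 (- strand) for SLC1A5. That of SLC3A2 lies at chr11:62881714-62881743 (+ strand), that of CHAC1 at chr15:40953232-40953299 (+ strand) and that of ASNS at chr7:97872439-97872506 (- strand). The remaining stretches lie at chr19:33374041-33374108 (+ strand) for CEBPG, chr14:75427976-75428043 (+ strand) for JDP2, chr19:48755440-48755507 (+ strand) for FGF21 and chr19:48872333-48872400 (+ strand) for PPP1R15A. The first base of the match lay before the start at -209 in CHAC1, -97 in SLC1A5, -68 in ASNS, -54 in FGF21, -42 in CEBPG, -16 in JDP2 and -7 in SLC1A4. It stood after the start at 8 in SLC7A1 and at 38 in SLC3A2. The cAMP response element of PPP1R15A began at -58.

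The 25 µg/mL arrays stood apart from the others. Across probe sets they correlated with the medium arrays at r between 0.978 and 0.981, against 0.992 to 0.996 within groups. The 24 poly-A and 18 hybridization control probe sets read 0.61 and 0.43 higher on the log2 scale at 25 µg/mL than in medium, and the poly-A mean was 6.21, 5.56 and 6.31 on the 25 µg/mL arrays, against 5.31, 5.54 and 5.39 on the medium arrays. The deposited values share one overall level, and scaling the arrays on these controls moved the median log2 fold change of all genes at 25 µg/mL against medium to -0.62 (poly-A) or -0.44 (hybridization), against -0.01 as deposited. Under poly-A scaling 71.2% of all genes were called lower and 0.905% higher, and under hybridization scaling 64.9% lower and 2.57% higher. Changes are therefore given relative to the overall level of each array, and where a named gene was called, a direction that turns under poly-A scaling is given with it. Of 10 enterocyte markers, chosen for the labelled cells, 5 stood above the median gene level. EPCAM, CDH17 and VIL1, epithelial and brush border genes, stood at the 99.6th, 94.8th and 93.0th percentile of gene levels. FABP1 and CDX2 stood at the 68.9th and 52.3rd percentile. Below the median were SLC15A1 (48.6th), ALPI (46.6th), APOA4 (45.5th), KRT20 (33.5th) and SI, the brush border enzyme sucrase-isomaltase (4.6th).

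At 25 µg/mL the called rises lay mainly among amino acid transporters (4 of 6) and feedback and stress effectors (3 of 6), while none of the 7 transcription factors was called higher than in medium; under poly-A scaling 2 of each of those first groups still rose (0.905% of all genes). With a Benjamini-Hochberg adjusted p under 0.05 over all genes (limma), 10 of 32 genes were higher (31.2%, background 14.1%) and 3 were lower (9.38%, background 19.3%), together 13 of 32 (40.6%, background 33.4%). A fit of the 9887 genes above the median gene level held 30 of the 32. There 10 of the 30 were higher and 4 lower, against 24.9% and 35.1% of the 9887 genes. The 25 µg/mL arrays lay wholly above the medium arrays for 11 of the 32 (background 19.8%) and wholly below for 9 (background 25.9%). The median log2 fold change of the set was 0.02, against -0.01 for all genes. The rises of SLC7A5, PPP1R15A, SESN2 and SLC1A4 passed the test under both control scalings. Those of CHAC1 and SLC7A1 kept their sign but no longer passed, and PSAT1, SLC1A5, STC2 and VLDLR turned negative under poly-A scaling.

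**Figure D1:**
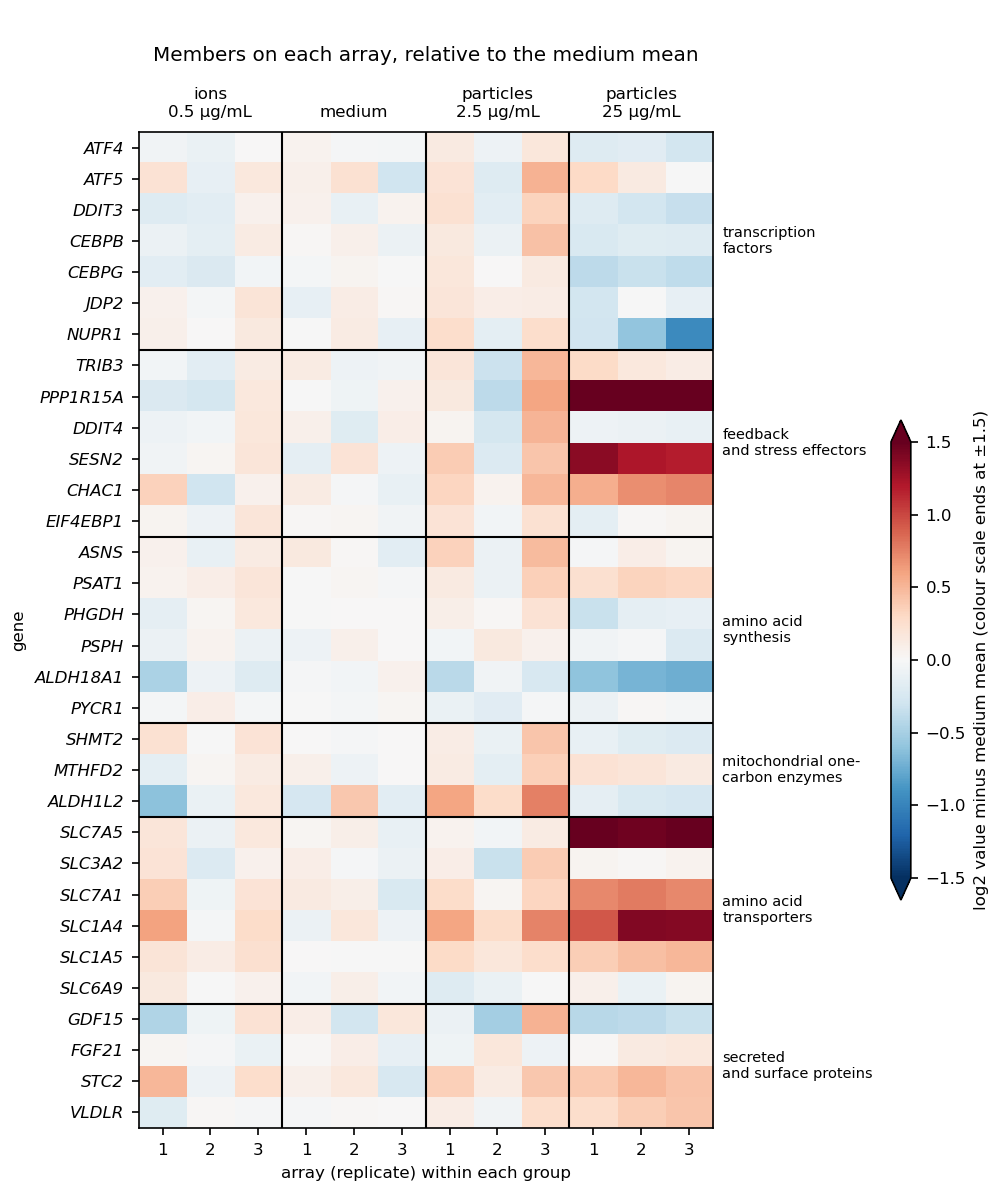
Each of the 32 genes (rows, by role) on each of the 12 arrays (columns), as the log2 value minus the mean of the 3 medium arrays. PPP1R15A, SESN2, SLC7A5 and SLC1A4 were high on all 25 µg/mL arrays, and within the 2.5 µg/mL group replicate 3 was the highest for 26 genes and replicate 2 the lowest for 28.

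Among the 7 transcription factors none was higher and 2 were lower at 25 µg/mL than in medium. Under poly-A scaling 6 of 7 were lower, where 71.2% of all genes were. ATF4 (probe set 200779_at), at the 99.3rd percentile of gene levels, had log2 values of 12.34, 12.36 and 12.25 at 25 µg/mL, against 12.58, 12.51 and 12.50 in medium. Its 25 µg/mL arrays lay below all medium arrays, but the difference of -0.22 ± 0.08 (SE) did not pass the test (adjusted p = 0.063). It passed under both control scalings and under 5 other settings (adjusted p from 0.0059 to 0.043), among them the fit without 2.5 µg/mL replicate 2, in which the count of lower genes was 5 with DDIT3 added (adjusted p = 0.037). In the remaining 15 of 22 refits it did not pass, and with median centring it was -0.11 (adjusted p = 0.38). The 2.5 µg/mL arrays read 12.66, 12.45 and 12.70 for ATF4 and the ion arrays 12.47, 12.43 and 12.54.

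NUPR1 (209230_s_at), a small stress-inducible chromatin protein, had log2 values of 8.24, 7.93 and 7.57 at 25 µg/mL, against 8.52, 8.65 and 8.40 in medium. All 25 µg/mL arrays lay below all medium arrays, and they were spread more widely than any other group for this gene. It fell by 0.61 ± 0.15 (SE) on the log2 scale (1.52-fold lower, adjusted p = 0.0051). CEBPG, a dimer partner of ATF4, had a mean of 9.42 ± 0.03 at 25 µg/mL, against 9.78 ± 0.04 in medium (± SD, n = 3 each) and fell by 0.37 (adjusted p = 0.0023). DDIT3, also called CHOP and a factor of the late, death-prone phase of the response, had a mean of 9.87 ± 0.07 at 25 µg/mL, against 10.15 ± 0.10 in medium (± SD, n = 3 each), a difference of -0.27 that did not pass (adjusted p = 0.099). It passed under both control scalings, with an intensity trend, with only the groups compared and without 2.5 µg/mL replicate 2 (limma adjusted p from 2.1e-04 to 0.042). With the deposited values CEBPB (-0.20), ATF5 (0.14) and JDP2 (-0.13) did not pass either, with adjusted p from 0.22 to 0.59. The value of ATF5, a close relative of ATF4, was negative under both control scalings and on its other 3 probe sets.

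Of the 6 feedback and stress effectors 3 were higher at 25 µg/mL, and under poly-A scaling 2 were higher and 2 lower (0.905% and 71.2% of all genes). PPP1R15A (37028_at), also called GADD34, directs protein phosphatase 1 to eIF2 and so reverses the phosphorylation that starts the response. Its log2 values were 9.51, 9.42 and 9.42 at 25 µg/mL, against 7.82, 7.76 and 7.88 in medium. The groups did not overlap, and the rise of 1.63 ± 0.18 (SE; 3.09-fold, adjusted p = 8.7e-06) was the largest of the set. At 2.5 µg/mL the values were 7.96, 7.43 and 8.41, a spread of SD 0.49 that took in all medium arrays, and ion arrays read 7.61, 7.55 and 7.98.

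SESN2 (223196_s_at), a sestrin that binds leucine and holds back the growth kinase complex mTORC1, had log2 values of 8.12, 7.98 and 7.95 at 25 µg/mL, against 6.63, 6.98 and 6.70 in medium. Every 25 µg/mL array exceeded every other array of the study, and the gene rose by 1.25 ± 0.15 (SE; 2.37-fold, adjusted p = 1.4e-05). The 2.5 µg/mL values of 7.15, 6.56 and 7.19 and the ion values of 6.71, 6.79 and 6.95 overlapped those in medium. CHAC1 (219270_at), an enzyme that breaks down glutathione, had log2 values of 7.55, 7.70 and 7.73 at 25 µg/mL, against 7.12, 6.98 and 6.88 in medium. The groups did not overlap, and the rise was 0.66 ± 0.15 (SE; 1.58-fold, adjusted p = 0.0026), with 2.5 µg/mL replicate 3 just below the lowest 25 µg/mL array at 7.49. The other 3 effectors did not pass: TRIB3, a pseudokinase that restrains ATF4, differed by 0.18 (95% interval -0.15 to 0.52), DDIT4, an inhibitor of mTORC1, by -0.09 and EIF4EBP1, a repressor of cap-dependent translation, by -0.03.

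**Figure D2:**
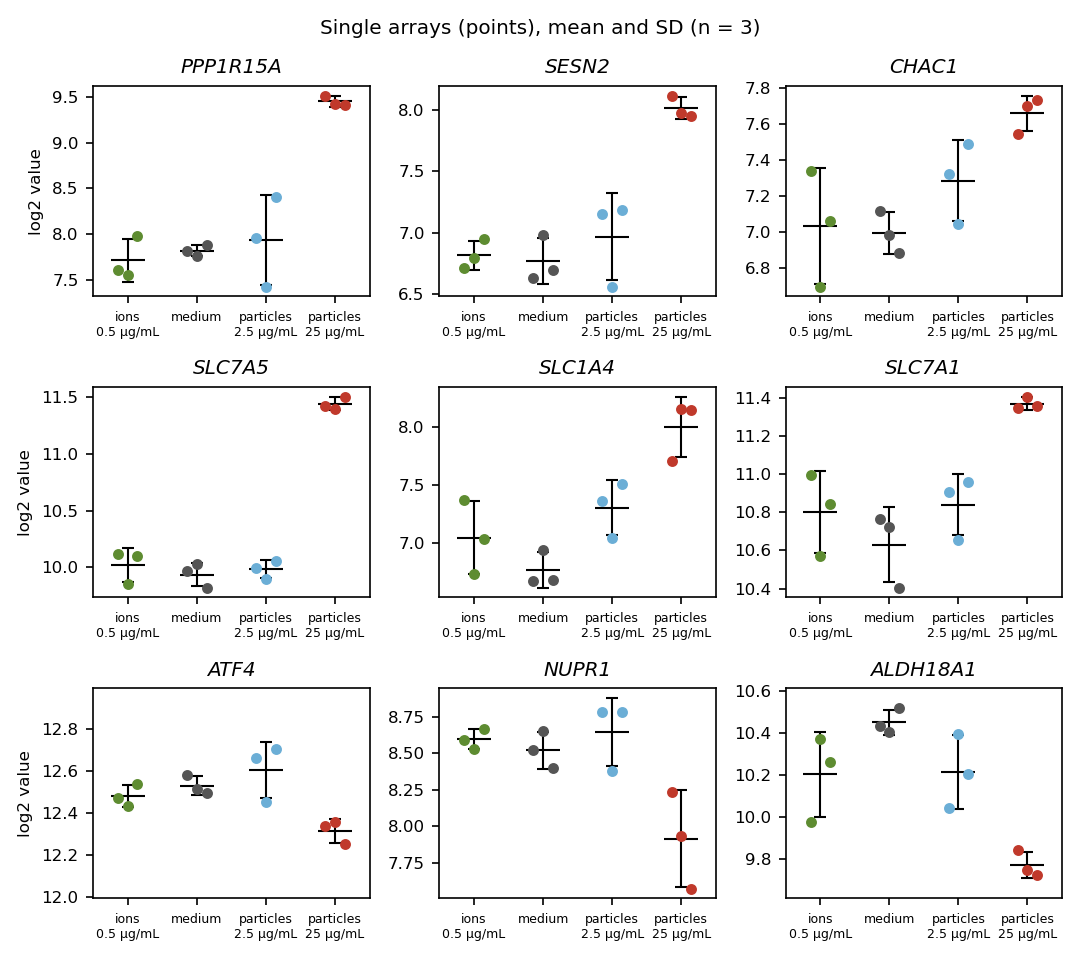
Log2 values of ATF4 and the 8 genes called at 25 µg/mL against medium with a log2 fold change of at least 0.5 in size, with 3 arrays per group as points and the group mean with SD as bars; each panel has its own axis, which does not start at 0. The 25 µg/mL arrays lie above all medium arrays in the 6 upper panels and below all of them for ATF4, NUPR1 and ALDH18A1.

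The amino acid transporters had the highest median log2 fold change of the 6 roles, 0.59, with 4 of 6 higher at 25 µg/mL than in medium, and under poly-A scaling 2 were higher (SLC7A5 and SLC1A4; 0.905% of all genes) and 2 lower (SLC3A2 and SLC6A9; 71.2%). SLC7A5 (201195_s_at), also called LAT1, is the light chain of the exchanger for leucine and other large neutral amino acids. Its log2 values were 11.43, 11.40 and 11.51 at 25 µg/mL, against 9.96, 10.02 and 9.82 in medium. No array of another group came above 10.11, and the rise was 1.51 ± 0.09 (SE; 2.84-fold, adjusted p = 3.7e-08). SLC3A2, the heavy chain that carries LAT1 to the cell surface, had a mean of 11.24 ± 0.02 at 25 µg/mL, against 11.20 ± 0.09 in medium (± SD, n = 3 each), a difference of 0.04 (95% interval -0.28 to 0.35; adjusted p = 0.88).

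SLC1A4 (209610_s_at), also called ASCT1, exchanges alanine, serine and cysteine. Its log2 values were 7.70, 8.15 and 8.15 at 25 µg/mL, against 6.68, 6.94 and 6.69 in medium. The groups did not overlap, and the rise was 1.23 ± 0.17 (SE; 2.35-fold, adjusted p = 4.5e-05). Among its 5 probe sets 3 rose by 1.19 to 1.34, while the other 2 differed by 0.30 and 0.21 and did not pass (adjusted p = 0.12 and 0.25). The 2.5 µg/mL arrays read 7.36, 7.04 and 7.51, all above the medium arrays, and the ion arrays 7.37, 6.74 and 7.04.

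SLC7A1 (212295_s_at), also called CAT1, carries arginine and lysine. Its log2 values were 11.35, 11.41 and 11.36 at 25 µg/mL, against 10.76, 10.72 and 10.40 in medium. The groups did not overlap, and the rise was 0.74 ± 0.12 (SE; 1.67-fold, adjusted p = 2.8e-04). The other 4 probe sets of SLC7A1 differed by 0.47, 0.33, 0.09 and -0.03, the last 2 without passing. SLC1A5, also called ASCT2 and a carrier of glutamine, had a mean of 8.56 ± 0.06 at 25 µg/mL, against 8.12 ± 0.01 in medium (± SD, n = 3 each), a rise of 0.44 (adjusted p = 4.0e-04). SLC6A9, a glycine carrier, was dim at the 16.9th percentile of gene levels and differed by 0.01.

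The 6 enzymes of amino acid synthesis did not move together, with 1 higher and 1 lower, and under poly-A scaling none higher and 5 lower, where 71.2% of all genes were lower. ALDH18A1 (222416_at) makes the precursor from which proline and ornithine are formed. Its log2 values were 9.84, 9.75 and 9.72 at 25 µg/mL, against 10.43, 10.40 and 10.52 in medium. The groups did not overlap, and the gene fell by 0.68 ± 0.11 (SE) on the log2 scale (1.60-fold lower, adjusted p = 2.2e-04). The 2.5 µg/mL arrays read 10.04, 10.39 and 10.21 and the ion arrays 9.98, 10.37 and 10.26, all below the lowest medium array and all above the highest 25 µg/mL array. On a second probe set, 217791_s_at, the difference from medium was -0.8 at 25 µg/mL, but -0.12 at 2.5 µg/mL and -0.05 with ions.

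PSAT1, an aminotransferase of the serine pathway, had a mean of 11.03 ± 0.05 at 25 µg/mL, against 10.74 ± 0.03 in medium (± SD, n = 3 each), a rise of 0.30 (adjusted p = 0.033) that no longer passed without any one medium array or without 25 µg/mL replicate 2 or 3 (adjusted p up to 0.095). PHGDH and PSPH, the first and last enzymes of that pathway, differed by -0.20 and -0.09 without passing. ASNS, asparagine synthetase and a standard marker of the ATF4 response, had a mean of 11.82 ± 0.06 at 25 µg/mL, against 11.78 ± 0.15 in medium (± SD, n = 3 each), a difference of 0.04 (95% interval -0.23 to 0.32; adjusted p = 0.85). PYCR1, which completes proline synthesis, differed by -0.03.

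None of the 3 mitochondrial one-carbon enzymes passed the test at 25 µg/mL: MTHFD2 differed from medium by 0.18, SHMT2, which takes the carbon from serine, by -0.17 and ALDH1L2 by -0.21, and under poly-A scaling 2 of the 3 were lower (71.2% of all genes). A second SHMT2 probe set, 214437_s_at, read -0.39 and passed a test over all 41091 probe sets (adjusted p = 0.013). Of the 4 secreted and surface proteins 2 were higher: STC2, a secreted glycoprotein, by 0.44 ± 0.14 (SE; adjusted p = 0.021) and VLDLR, a lipoprotein receptor, by 0.35 ± 0.09 (SE; adjusted p = 0.0092), both with negative values under poly-A scaling. The STC2 rise lost its call when medium replicate 3 was left out (adjusted p = 0.11) and when 25 µg/mL replicate 2 was (adjusted p = 0.066). GDF15, a stress hormone of the circulation, had a mean of 9.88 ± 0.04 at 25 µg/mL, against 10.26 ± 0.24 in medium (± SD, n = 3 each) and did not pass (difference -0.38, adjusted p = 0.20), and FGF21 was dim at the 25.7th percentile and differed by 0.10.

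Set against the promoter stretches above, the 9 genes with the composite element comprised 4 that were higher at 25 µg/mL (SLC1A4, SLC7A1, CHAC1 and SLC1A5), 1 that was lower (CEBPG) and 4 that were not called (ASNS, SLC3A2, JDP2 and FGF21). The 17 genes whose windows lacked the letters comprised 6 that were higher, among them PPP1R15A, SESN2 and SLC7A5, 1 that was lower and 10 that were not called. Of all genes 14.1% were higher and 19.3% lower, and whether the genes with and without the letters differ in their calls was not tested.

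**Figure D3:**
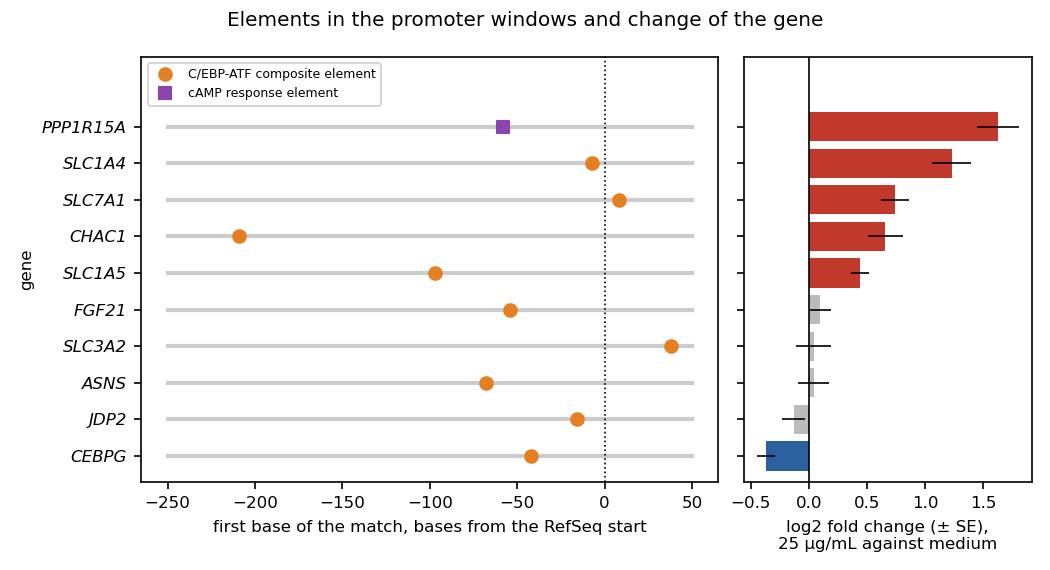
Left, position of the first matched base in bases from the RefSeq start for the 10 genes with a composite element (circles) or a cAMP response element (square); right, log2 fold change at 25 µg/mL against medium with SE (red higher, blue lower, grey not called). Genes with the element range from CEBPG, lower by 0.37, to SLC1A4, higher by 1.23.

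At 2.5 µg/mL no gene of the study passed the test against medium, and so none of the 32 did (background 0.0% in each direction). At an unadjusted p under 0.05 (limma), 5 of the 32 differed (background 4.55%): ALDH1L2 by 0.54, SLC1A4 by 0.54, STC2 by 0.29 and SLC1A5 by 0.24 above medium, and ALDH18A1 by -0.24. The count was 18 without 2.5 µg/mL replicate 2, and between 2 and 6 without any other single array. At this dose the other probe sets of ALDH1L2 read 0.34 and 0.08, and those of SLC1A4 0.57, 0.47, -0.04 and -0.19. For STC2 the other probe set read 0.19 and for ALDH18A1 -0.12. The 2.5 µg/mL arrays lay wholly above the medium arrays for 3 genes (SLC1A4, SLC1A5 and PHGDH; background 5.45%) and wholly below for ALDH18A1 (background 4.51%). The log2 fold change was above 0 for 28 of the 32 (87.5%, background 50.6%), with a median of 0.12, against 0.00 for all genes.

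These 2.5 µg/mL values came with a common order of the arrays. Replicate 3 was the highest of its group for 26 of the 32 genes (36.4% of all genes), replicate 2 the lowest for 28 (36.3% of all genes), and 25 of the 32 had both at once with replicate 1 between (20.8% of all genes). The median of the set, relative to the medium mean, was 0.14, -0.08 and 0.34 on replicates 1, 2 and 3, where the median of all genes was 0.00 on each. PPP1R15A ranged from 7.43 on replicate 2 up to 8.41 on replicate 3, TRIB3 had an SD of 0.41, DDIT4 of 0.39 and GDF15 of 0.52 (n = 3 each). Without replicate 3 the set's median was 0.03, with 23 of 32 above 0, and without replicate 2 it was 0.25. The 3' minus 5' difference of the ACTB probe sets, a measure of RNA integrity and labelling, was 0.65, 0.55 and 0.96 on replicates 1, 2 and 3, and that of GAPDH was 0.17, 0.10 and 0.16. Their part in the result was not tested.

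Silver ions at 0.5 µg/mL likewise gave no called gene (background 0.0% in each direction). At an unadjusted p under 0.05 (limma), 2 of the 32 differed from medium (background 6.24%): ALDH18A1 by -0.25 and SLC1A5 by 0.18. The count was 5 without ion replicate 2, and at most 2 without any other single array. Above 0 were 20 of the 32 (62.5%, background 51.2%), with a median of 0.02. For ALDH18A1 the log2 fold change against medium was -0.24 at 2.5 µg/mL, -0.68 at 25 µg/mL and -0.25 with ions, and for SLC1A5 it was 0.24, 0.44 and 0.18 in the same order. The second probe set of ALDH18A1, 217791_s_at, read -0.12, -0.8 and -0.05 in that order. These comparisons share the medium arrays. Within the ion group replicate 3 was the highest for 18 of the 32 genes (35.7% of all genes) and replicate 2 the lowest for 19 (35.5% of all genes). The ACTB 3' minus 5' difference was 0.45, 0.73 and 0.95 on ion replicates 1, 2 and 3. Its part in the order of the ion arrays was not tested.

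**Figure D4:**
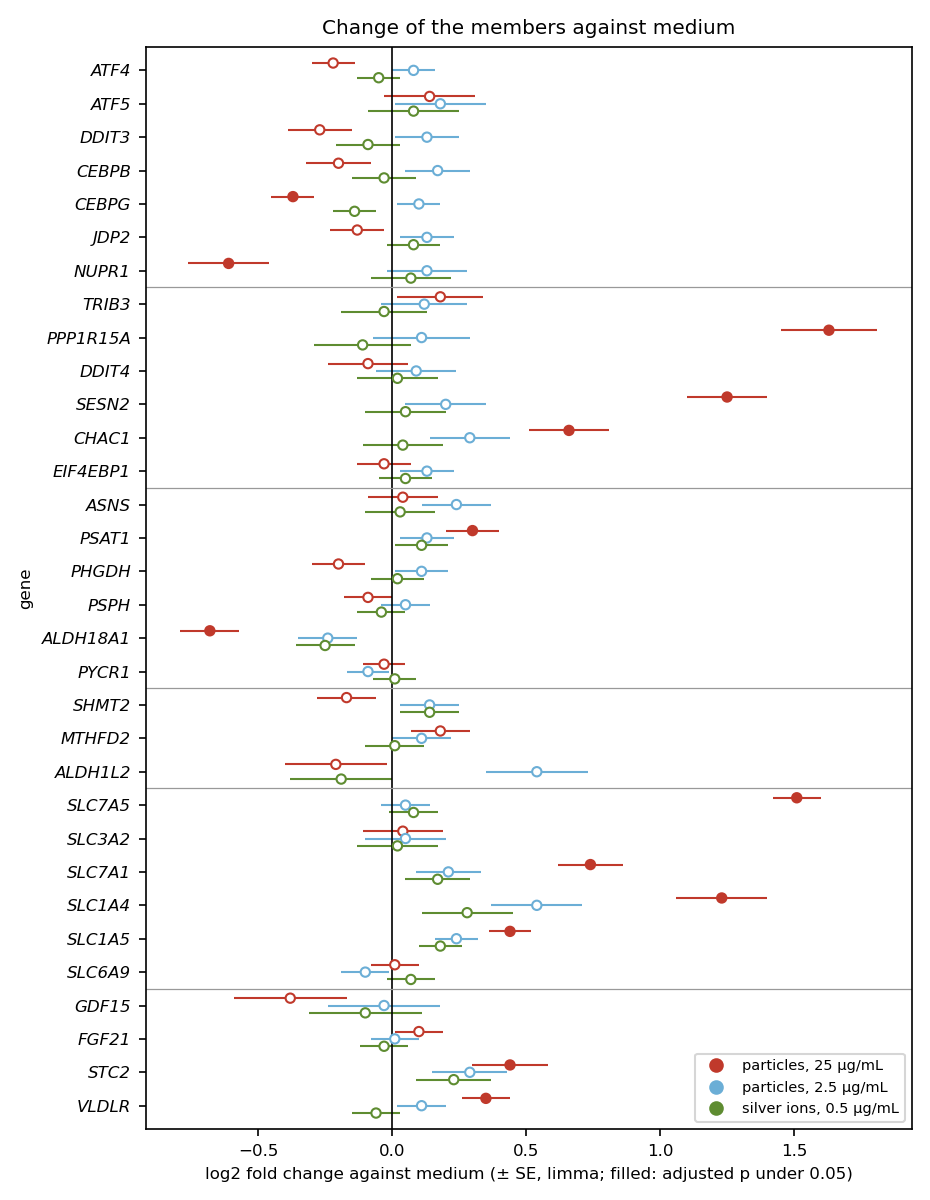
Log2 fold change against medium (x axis, with limma SE) of the 32 genes (y axis, by role) at 25 µg/mL, 2.5 µg/mL and with silver ions; filled points passed an adjusted p under 0.05. Filled points occur at 25 µg/mL alone, 10 of them right of 0 and 3 left of it; under poly-A scaling PSAT1, SLC1A5, STC2 and VLDLR move left of 0.

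Set directly against 2.5 µg/mL, 25 µg/mL nanoparticles gave 5 of 32 genes higher (15.6%, background 13.7%) and 10 lower (31.2%, background 20.3%). The higher ones were SLC7A5 (1.46), PPP1R15A (1.52), SESN2 (1.05), SLC1A4 (0.70) and SLC7A1 (0.53). In the fit of the 9887 genes above the median gene level, 8 of 30 were higher and 10 lower, against 23.9% and 37.0% of those genes. Under poly-A scaling SLC1A4 (-0.05) and SLC7A1 (-0.22) turned negative, SESN2 (0.30) no longer passed, and 2 of 32 were higher and 26 lower (0.678% and 85.3% of all genes). The lower ones included 6 of the 7 transcription factors: NUPR1 (-0.74), CEBPG (-0.47), DDIT3 (-0.40), CEBPB (-0.37), ATF4 (-0.29) and JDP2 (-0.26). ATF4 averaged 12.31 ± 0.06 at 25 µg/mL and 12.61 ± 0.13 at 2.5 µg/mL (SD, n = 3 each; adjusted p = 0.014). ALDH1L2, the mitochondrial enzyme that oxidises formyl-tetrahydrofolate, averaged 6.63 ± 0.06 at 25 µg/mL and 7.39 ± 0.24 at 2.5 µg/mL (SD, n = 3 each; difference -0.75, adjusted p = 0.0063), and ALDH18A1 (-0.44), PHGDH (-0.31) and SHMT2 (-0.31) were also lower. These counts depended on the array named above: without 2.5 µg/mL replicate 3, 8 genes were higher and 4 lower (NUPR1, CEBPG, ALDH18A1 and ALDH1L2), and ATF4, at -0.24, no longer passed (adjusted p = 0.059). The lower count was also reduced, to 6, by leaving out replicate 1 of either dose, and to 5 by leaving out 25 µg/mL replicate 3. Over the 12 fits without 1 array, SHMT2 lost its call in 9 and JDP2 in 7. CEBPB lost it in 4, ATF4 and DDIT3 in 3 each and PHGDH in 2. NUPR1, CEBPG, ALDH18A1 and ALDH1L2 kept theirs in all 12.

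Against silver ions, 25 µg/mL nanoparticles gave 8 of 32 genes higher (25.0%, background 13.7%) and 3 lower (9.38%, background 18.6%). PPP1R15A (1.74), SLC7A5 (1.42), SESN2 (1.20), SLC1A4 (0.95), CHAC1 (0.63), SLC7A1 (0.57), VLDLR (0.41) and SLC1A5 (0.26) were higher, and NUPR1 (-0.68), ALDH18A1 (-0.43) and CEBPG (-0.23) lower. In the fit of the 9887 genes above the median gene level, 8 of 30 were higher and 4 lower, against 25.1% and 33.0% of those genes. Under poly-A scaling CHAC1 (-0.16), SLC7A1 (-0.22), VLDLR (-0.38) and SLC1A5 (-0.53) turned negative, SESN2 (0.41) and SLC1A4 (0.16) no longer passed, and 2 of 32 were higher and 25 lower (0.713% and 87.8% of all genes). ATF4 averaged 12.31 ± 0.06 at 25 µg/mL and 12.48 ± 0.05 with ions (SD, n = 3 each) and did not pass (difference -0.17, adjusted p = 0.15). Between 2.5 µg/mL nanoparticles and ions none of the 32 passed (background 0.0%), 28 had a positive difference (background 49.5%) and 2, ALDH1L2 (0.73) and CEBPG (0.24), had an unadjusted p under 0.05 (limma; background 8.77%). The last count was 13 without 2.5 µg/mL replicate 2, and between 2 and 4 without any other single array. All 3 comparisons between exposed groups are of unequal silver doses.

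The genes around the set moved in both directions at 25 µg/mL against medium, where 14.1% of all genes were higher and 19.3% lower (0.905% and 71.2% under poly-A scaling). Upstream, a list of 18 genes held eIF2 kinases, eIF2, its exchange factor eIF2B and PPP1R15B, DNAJC3, GCN1, IMPACT, DELE1 and OMA1. In this list 2 genes were higher and 5 lower, with a median of -0.01. The counts were 6 higher and 4 lower with median centring, and none higher and 12 lower under poly-A scaling. IMPACT (-0.46, adjusted p up to 0.096 without single arrays) and OMA1 (-0.53) were among the 5 lower genes. EIF2S1, the eIF2 subunit that the kinases phosphorylate, averaged 11.39 at 25 µg/mL and 10.39 in medium and rose by 1.00 ± 0.08 (SE; adjusted p = 4.4e-07), and 0.39 under poly-A scaling did not pass. EIF2B2 rose by 0.22 (adjusted p = 0.049), which turned negative under both control scalings and no longer passed without single arrays (adjusted p up to 0.18). Of the kinases, EIF2AK2 (PKR, sensor of double-stranded RNA) fell by 0.90, EIF2AK1 (HRI, sensor of haem and mitochondrial stress) by 0.62 and EIF2AK3 (PERK, sensor of the endoplasmic reticulum) by 0.28 (adjusted p = 0.017, up to 0.071 without single arrays), while EIF2AK4 (GCN2, sensor of uncharged tRNA) differed by -0.14 without passing. EIF2AK4 and EIF2AK3 were outside the rule for naming and were named after their values were seen, to give the kinases in full. The values of IMPACT and OMA1 were likewise added after they were seen.

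Among other reported ATF4 targets 14 of 16 were measured, with 5 higher and 4 lower. Under poly-A scaling 2 were higher and 8 lower (0.905% and 71.2% of all genes). ATF3, a partner and target of ATF4, averaged 10.05 at 25 µg/mL and 8.20 in medium and rose by 1.85 ± 0.15 (SE; 3.61-fold, adjusted p = 3.6e-07). SLC7A11, the cystine importer that feeds glutathione synthesis, averaged 10.85 at 25 µg/mL and 9.31 in medium and rose by 1.54 ± 0.13 (SE; 2.91-fold, adjusted p = 8.6e-07). Both rises passed under both control scalings. NFIL3, a bZIP repressor, fell by 1.02 and KLHL24, an adaptor of a ubiquitin ligase, by 0.91.

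Of 16 measured genes of other amino acid metabolism none was higher and 8 were lower. Under poly-A scaling 14 were lower, where 71.2% of all genes were. With quantile normalization 2 were higher and 8 lower, and with median centring 2 and 7. OAT, which links ornithine to the proline precursor, averaged 11.67 at 25 µg/mL and 13.11 in medium and fell by 1.44 ± 0.10 (SE; 2.71-fold lower, adjusted p = 7.6e-08). ASS1, which joins citrulline and aspartate on the way to arginine, averaged 9.51 at 25 µg/mL and 10.95 in medium and also fell by 1.44 ± 0.10 (SE; adjusted p = 7.2e-08). OAT and ALDH18A1 feed the same proline precursor, and both were lower.

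The other 17 amino acid transporters comprised 4 that were higher and 6 that were lower. Under poly-A scaling none was higher and 8 were lower (0.905% and 71.2% of all genes). SLC36A1, a lysosomal and apical carrier of small amino acids, rose by 0.47 and SLC7A6, another light chain partner of SLC3A2, by 0.41, with values of -0.15 and -0.21 under poly-A scaling. SLC3A1, the heavy chain of the apical cystine and basic amino acid exchanger, fell by 0.93 (1.91-fold lower) and SLC7A7, the basolateral partner of SLC3A2, by 0.75. Against 0.04 for the heavy chain SLC3A2, 5 of its light chains had log2 fold changes of 1.54 (SLC7A11), 1.51 (SLC7A5), 0.41 (SLC7A6), 0.31 (SLC7A8) and -0.75 (SLC7A7). SLC7A8, named after its value was seen, passed (adjusted p = 0.019) and turned to -0.30 under poly-A scaling. Of 20 genes for amino acid sensing by mTORC1, 3 were higher and 7 lower. Under poly-A scaling none was higher and 15 were lower, where 71.2% of all genes were. RRAGC, a GTPase that brings mTORC1 to the lysosome, rose by 0.66 and RPTOR, its substrate-binding subunit, by 0.53 (0.05 and -0.09 under poly-A scaling), while CASTOR1, the arginine sensor, fell by 1.14 and DEPTOR, an inhibitor within the complex, by 1.05. SESN1 and SESN3, the relatives of SESN2, fell by 0.90 and 0.75 (adjusted p = 3.3e-06 and 4.4e-05) and were named after their values were seen. None of these 5 lists had a called gene at 2.5 µg/mL or with ions.

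**Figure D5:**
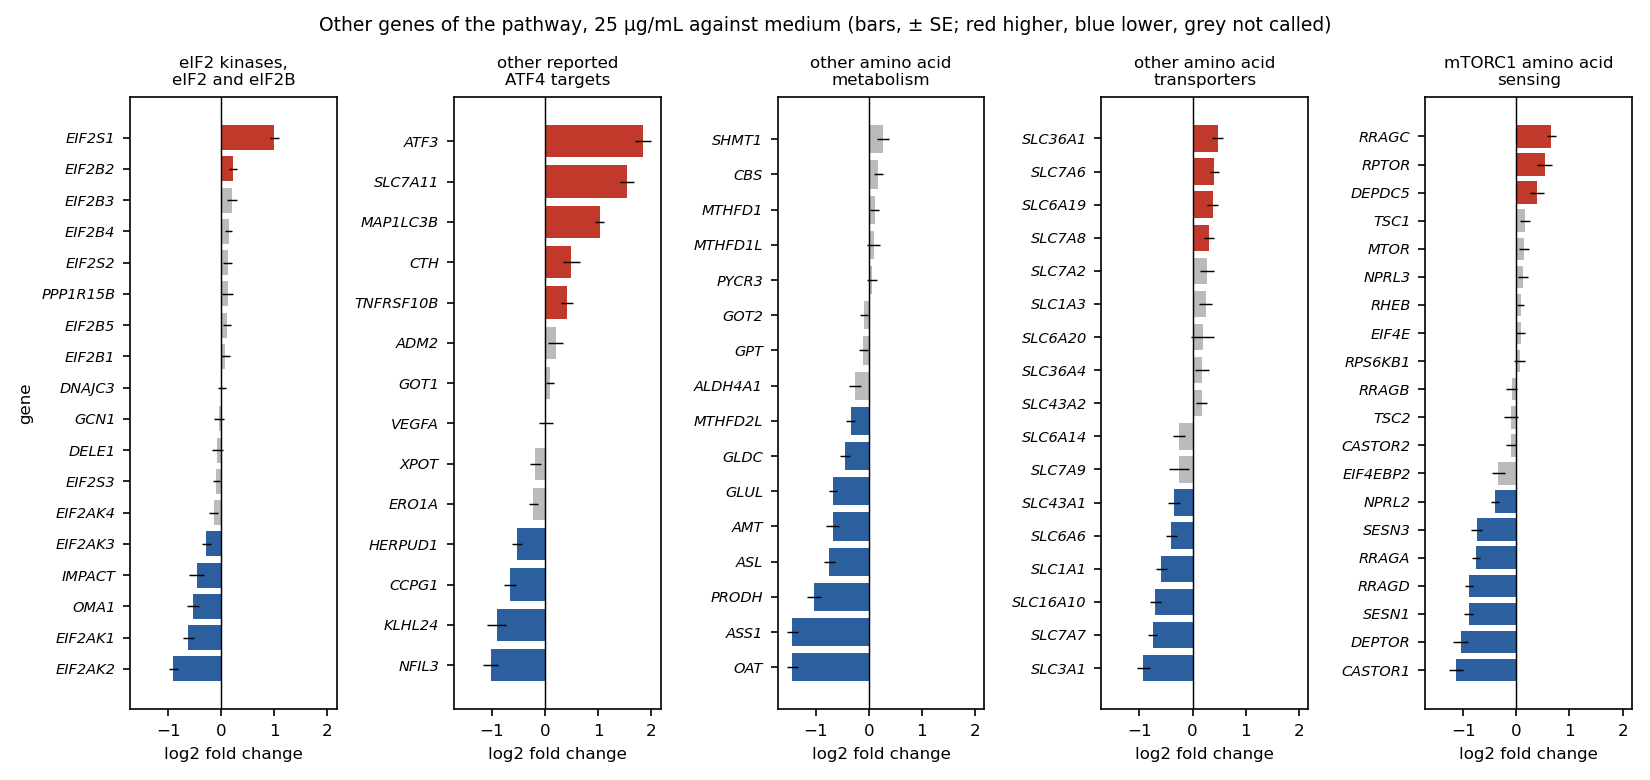
Log2 fold change at 25 µg/mL against medium (bars, with limma SE) of the measured genes of 5 related lists, sorted by value; red genes were called higher, blue lower and grey not called. Amino acid metabolism outside the set has 8 blue and no red bars; under poly-A scaling every red bar but those of ATF3 and SLC7A11 loses its call.

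Of 10 markers of enterocytes 6 were lower and none higher at 25 µg/mL against medium (19.3% and 14.1% of all genes). Under poly-A scaling 10 were lower, where 71.2% of all genes were. The summed linear level of the 10 was 11000 to 11300 on the 25 µg/mL arrays, against 12600 to 12900 on the medium arrays. On the ion arrays it was 10900 to 13300. Such a sum weighs bright genes most, and EPCAM, the brightest, averaged 13.02 at 25 µg/mL and 13.20 in medium and was not called. Goblet cell markers had no called gene of 5, and their summed level was 2970 to 3620 at 25 µg/mL and 2760 to 3200 in medium. The summed level of the 3 enteroendocrine markers was 86.2 to 103 at 25 µg/mL and 86.0 to 107 in medium, of the 6 fibroblast markers 611 to 636 and 653 to 819, of the 4 leukocyte markers 100 to 125 and 120 to 140, and of the 3 endothelial markers 94.0 to 107 and 84.2 to 92.9, in that order of groups. Of these 16 genes 3 were higher (SYP, COL1A2 and CDH5) and 2 lower (LUM and CD14), where 14.1% and 19.3% of all genes were. Under poly-A scaling none of the 16 was higher, with SYP at -0.34 and COL1A2 at -0.27. PTPRC, the pan-leukocyte marker, and CDH5 stood at the 14.8th and 19.5th percentile of gene levels. COL1A1, a fibroblast marker, stood at the 85.0th percentile, with a mean of 8.97 at 25 µg/mL and 9.21 in medium. It was the only 1 of the 16 above the median gene level. The part of these markers in the changes of the set was not tested.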

How the data were processed

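Biotin-labelled cRNA from the total RNA of 12 samples was read on 1 array each. The deposited table holds log2 values per probe set, and RMA and Partek are named in the submitters' processing notes, with versions and settings not given in the sources used here. Of 54675 probe sets, 62 were controls, 41091 carried 1 symbol in the platform annotation, 1801 several and 11721 none. For 41037 probe sets the symbol was taken from RefSeq through the gene ID, whether or not it changed. For 54 the annotated symbol was kept. Each gene took its brightest 1-symbol probe set, giving 19775 genes, without a filter. No file gives detection calls or a batch. Groups were compared with limma 3.58.1 in R 4.3.3 (1 model for 4 groups of 3 arrays, 6 two-sided contrasts, Benjamini-Hochberg over all genes, threshold 0.05), checked on simulated data. Levels of different genes were compared only as percentiles of probe set signal. Array values are given for genes called at 25 µg/mL against medium with a log2 fold change of at least 0.5 in size and for ATF4, and from each related list up to 2 called rises and 2 called falls are named. The members and lists were chosen with earlier results of these data known. Promoters come from RefSeq tables (GRCh38.p14). Summed marker levels are sums of 2 to the power of the log2 value. Figures were drawn with matplotlib 3.10.9. Alternatives were 24 settings in all: other scalings, filters, probe set rules, fits and thresholds, and each array left out.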

Additional observations from a re-analysis of the deposited data

Results flagged for a closer look

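Probe sets outside the gene measurements differed at 25 µg/mL. The poly-A controls were 0.61 higher, the hybridization controls 0.43 higher and the ribosomal RNA controls 0.64 higher on the log2 scale at 25 µg/mL than in medium, with each 25 µg/mL array above every medium array. For SHMT2, a probe set that did not represent the gene, 214437_s_at, read -0.39 at 25 µg/mL against medium.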

How the results depend on the processing

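Over 22 refits, the 13 genes called at 25 µg/mL against medium kept sign and call in 265 of 286 values, lost the call in 15 and reversed in 6; of 14 values from their other probe sets, 9 kept both, 4 lost the call and 1 reversed. The 2 stricter thresholds are counted apart. The 10 higher calls became 8 at an adjusted p under 0.01, 6 with at least 1.5-fold change and 4 under each control scaling, and the 3 lower calls became 19 (poly-A; 71.2% of all genes), 18 (hybridization; 64.9%) and 5 (intensity trend, and only the groups compared). Leaving out 1 array gave 8 to 10 higher and 3 to 5 lower. For 25 against 2.5 µg/mL, the 5 higher calls became 8 (quantile normalization, without dim genes, mean of a gene's probe sets), 10 (median centring), 2 (poly-A) and 3 (hybridization), and 5 to 8 without 1 array. The 10 lower calls became 4 (adjusted p under 0.01, and median centring), 2 (at least 1.5-fold), 26 (poly-A; 85.3% of all genes) and 4 to 11 without 1 array. For 25 µg/mL against ions, the 8 higher calls became 5 (at least 1.5-fold), 2 (poly-A) and 4 (hybridization), with 7 to 8 without 1 array; the 3 lower calls became 1, 25 and 18 in the same order, 6 (intensity trend), 5 (array weights) and 2 to 4 without 1 array. The stricter thresholds lower counts by construction; the cause of the other differences was not tested. Reversed log2 fold changes under poly-A scaling were PSAT1 -0.32, SLC1A5 -0.17, STC2 -0.17, VLDLR -0.26, ATF5 -0.47, TRIB3 -0.43, ASNS -0.57, MTHFD2 -0.44, SLC3A2 -0.57, SLC6A9 -0.61 and FGF21 -0.51. Under hybridization scaling they were PSAT1 -0.13, VLDLR -0.078, ATF5 -0.28, TRIB3 -0.24, ASNS -0.38, MTHFD2 -0.25, SLC3A2 -0.39, SLC6A9 -0.42 and FGF21 -0.32. Median centring reversed DDIT4 (0.015), EIF4EBP1 (0.078), PSPH (0.016) and PYCR1 (0.077), quantile normalization PYCR1 (0.028) and SLC6A9 (-0.0047), array weights SLC6A9 (-0.0076), and the mean of probe sets ATF5 (-0.023) and ASNS (-0.062). Other probe sets reversed SLC7A1 (-0.033), ATF5 (-0.15, -0.074 and -0.015), ASNS (-0.17), PSPH (0.17) and ALDH1L2 (0.080). Without 1 array, ATF5 ranged from -0.0085 to 0.26, EIF4EBP1 from -0.0654 to 0.027, ASNS from -0.037 to 0.12, SLC3A2 from -0.0024 to 0.090 and SLC6A9 from -0.031 to 0.059. No paired analysis was possible because the labels give letters in place of shared replicate numbers. With no detection calls, values of SLC6A9 and FGF21 have no stated background.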
